A study of Mus musculus with 8 samples.

Results

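The cyclins of the cell cycle were examined in DC-restricted progenitors (CDPs), the bone marrow cells from which conventional and plasmacytoid DCs derive. The genes were Ccna2, Ccnb1, Ccnb2, Ccnd1, Ccnd2, Ccnd3, Ccne1, Ccne2, Ccnf and Ccng1, chosen by symbol in GENCODE vM21 (GRCm38). All 10 had a row among the 16119 genes of the authors' count table, and all 10 were among the 15837 that passed edgeR's filter on low counts. RNA came from C57BL/6 mice (C57BL/6J in the methods) on either of 2 diets. The HFD group (4 libraries, labelled DIO) received 60 kcal% fat for 16 weeks. The CF group (4 libraries, labelled DIO-Control) received 10 kcal% fat and was matched in age and feeding. According to the methods, the mice were males bought as diet-induced obese animals or their controls, and about 50000 cells were sorted that lacked lineage markers, expressed Flt3 and CD115, had intermediate c-Kit and low Sca1. The labels give 4 mice per diet without naming the mouse behind each library, so p values measure the spread between these libraries. The question was whether cyclin transcripts differ between HFD and CF in these progenitors.

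Cyclins are the regulatory partners of cyclin-dependent kinases (CDKs). D-type cyclins bind CDK4 and CDK6 in G1 phase and are induced by growth factors, E-type cyclins bind CDK2 at entry into S phase, cyclin A2 acts in S and G2 phase, and B-type cyclins drive mitosis with CDK1. Cyclin F has no CDK partner and is the substrate receptor of a ubiquitin ligase in G2 phase, and cyclin G1 is induced by p53. Transcripts of the A2, B and F cyclins accumulate late in the cycle, when repression by the DREAM complex at the CHR element of their promoters is lifted and the factor NF-Y acts on their CCAAT boxes. In bone marrow progenitors, the D-type cyclins in use are known to differ between lineages.

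Promoters are shown because cyclins B1, B2 and F are known to be controlled together through these short elements, with Ccne1 as a cyclin of the earlier G1/S class. Of the 10 genes, 6 matched the RefSeq promoter table (GRCm38.p6, a window around each transcription start), namely Ccnb1, Ccnb2, Ccnd3, Ccne1, Ccnf and Ccng1. Promoters of Ccna2, Ccnd1, Ccnd2 and Ccne2 were not analysed here. The sequences of Ccnb1 (chr13:100786437-100786736), Ccnb2 (chr9:70421505-70421804), Ccnf (chr17:24251360-24251659) and Ccne1 (chr7:38107441-38107740), all on the minus strand, run 5′ to 3′ as follows. Capitals mark the CCAAT box, the letters TTTGAA of the CHR element and the related letters TTTAAA, each searched on both strands.
Ccnb1: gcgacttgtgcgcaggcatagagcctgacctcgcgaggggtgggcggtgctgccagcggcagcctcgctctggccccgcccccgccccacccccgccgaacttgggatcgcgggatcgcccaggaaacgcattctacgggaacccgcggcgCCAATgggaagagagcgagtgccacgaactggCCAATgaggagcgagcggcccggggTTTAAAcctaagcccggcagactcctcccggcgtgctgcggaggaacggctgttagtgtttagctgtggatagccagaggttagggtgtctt
Ccnb2: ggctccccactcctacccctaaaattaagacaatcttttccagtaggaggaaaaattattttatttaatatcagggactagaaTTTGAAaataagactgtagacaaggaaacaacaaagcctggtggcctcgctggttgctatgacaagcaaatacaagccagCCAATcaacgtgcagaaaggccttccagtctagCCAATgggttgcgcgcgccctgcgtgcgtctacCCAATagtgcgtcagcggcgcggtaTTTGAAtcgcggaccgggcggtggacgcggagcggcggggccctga
Ccnf: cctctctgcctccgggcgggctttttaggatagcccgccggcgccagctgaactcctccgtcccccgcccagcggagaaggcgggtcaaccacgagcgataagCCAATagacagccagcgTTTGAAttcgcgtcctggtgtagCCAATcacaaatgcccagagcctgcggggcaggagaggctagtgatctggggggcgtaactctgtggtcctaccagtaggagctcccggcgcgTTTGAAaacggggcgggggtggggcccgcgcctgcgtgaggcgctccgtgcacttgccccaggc
Ccne1: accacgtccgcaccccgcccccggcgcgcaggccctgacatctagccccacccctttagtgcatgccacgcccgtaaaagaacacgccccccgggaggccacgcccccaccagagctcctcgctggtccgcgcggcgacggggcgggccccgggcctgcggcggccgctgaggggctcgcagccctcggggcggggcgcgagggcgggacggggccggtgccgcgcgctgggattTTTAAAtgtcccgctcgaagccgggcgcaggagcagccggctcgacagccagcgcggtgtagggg

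Ccnb2 held 3 CCAAT boxes, starting at -87, -54 and -21 from the transcription start, each 33 bases from the next. Ccnb1 held 2, at -99 and -67, which are 32 bases apart, and Ccnf held 2, at -147 and -107, 40 bases apart. In the Ccne1 window no CCAAT was found, and GGGCGG (the GC box, both strands) occurred at -236, -110, -62 and -49. This motif, held by 35.7% of all promoters, was also found in Ccnb1 at -209, -175 and -169, in Ccnf at -237, -186 and -4, in Ccnb2 at 20 and in both windows of Ccnd3. Of all 32851 promoters in the table, 37.4% held CCAAT on either strand and 11.7% held it more than once. TTTGAA was found in Ccnb2 at -167 and 5 and in Ccnf at -130 and -14, against 17.9% of all promoters. Ccnb1 held TTTAAA at -42 and Ccne1 at -15, which 13.2% of promoters hold. Ccng1 had CCAAT at -216, -123, -42 and 2, the one at -42 on the opposite strand, without a match to TTTGAA or to the related TTTAAA. The table lists a pair of starts for Ccnd3, and in these a single CCAAT was found, in the downstream window at -108. These matches describe the letters in the windows.

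Total counts were 28203651 to 38969160 per library in HFD and 32575696 to 48409689 in CF. Protein-coding genes took 38.9% to 41.9% of these counts in HFD and 28.3%, 34.1%, 33.9% and 42.0% in CF replicates 1 to 4. Values are CPM, that is counts brought to a common library total with edgeR's TMM factors. The sort markers were present in all 8 libraries, with 34.2 to 53.6 CPM for Kit, 79.4 to 133 for Csf1r, which encodes CD115, 88.8 to 378 for Flt3, and 1.37 to 3.25 for Ly6a, which encodes Sca1. HFD replicate 1 stood apart from the other 7 libraries. It had the lowest Flt3 (88.8 CPM, 227 to 378 in the others) and the highest sum over 15 of 15 neutrophil markers (20100 CPM, 953 to 6540) and over 12 of 12 erythroid markers (922 CPM, 126 to 218). None of these neutrophil and erythroid markers was at 0 in any library. HFD replicates 3 and 4 had the lowest neutrophil sums (1280 and 953 CPM), below all CF libraries (1950 to 6540). The sum of the 7 plasmacytoid DC markers tested was 201, 386, 329 and 472 CPM in HFD replicates 1 to 4 and 197 to 255 in CF. The sum of the 8 conventional DC markers reached 188 to 420 CPM in HFD against 439 to 824 in CF. Cd74 had the most CPM of these markers (98.4 to 208 in HFD, 230 to 520 in CF). Only Cd74 and H2-Ab1 (20.1 to 88.7 and 89.2 to 150) did not overlap between the diets, 2 of 8 against 6.16% of all genes. Itgax was the 1 marker of this list with a higher mean in HFD (38 to 100 CPM, 47.6 to 58.4 in CF). B cell markers summed to 51.9 to 118 CPM in HFD against 52.8 to 84.4 in CF, monocyte markers to 260 to 767 and 483 to 814, granulocyte progenitor markers to 223 to 1290 and 338 to 751, and the 4 T and NK cell markers tested to 21.1 to 31.7 and 19 to 24.8. Of the last, Cd3d was at 0 in the lowest library.

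Between HFD and CF, edgeR's quasi-likelihood test called 0 of the 10 cyclins at an adjusted p below 0.05, where it called 0.423% of all genes tested, each of them lower in HFD. Before adjustment, Ccnd1 and Ccnd3 had a p below 0.05 and were higher in HFD, that is 2 of the 10 against 3.22% of all genes, and 0 of the 10 were lower at that p, against 5.34%. DESeq2 likewise called 0 cyclins (3.58% of all genes), with 2 higher at an unadjusted p below 0.05 (3.36%). At that p were 0 cyclins with limma voom (3.2% of all genes), and 1 each with limma voom and quality weights (4.98%), with limma on log2(CPM + 1) (3.12%) and with protein-coding genes alone (2.42%). In the 19 alternative settings 0 cyclins were called, where 0% to 3.58% of all genes were. The fitted log2 fold change was above 0 for 10 of 10 cyclins, which held for 59.7% of all genes and 64.6% of protein-coding genes tested. Their median log2 fold change was 0.28, and that of all genes 0.055. CPM of the diets overlapped for each of the 10, while the diets did not overlap for 6.16% of all genes (2.58% with HFD above CF and 3.58% with HFD below). In these bulk libraries, a different mix of cells and a different amount of RNA per cell cannot be told apart.

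**Figure D1:**
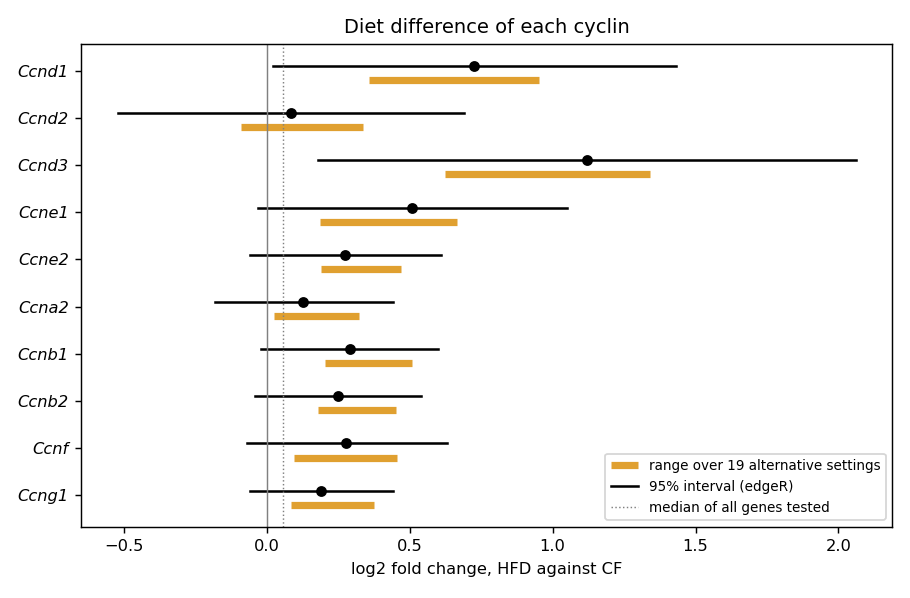
Log2 fold change of each cyclin between HFD and CF (points, edgeR) with its 95% interval (black lines) and the range over 19 alternative settings (orange bars). The intervals of Ccnd1 and Ccnd3 lie above 0, the other 8 include 0, and the orange bar of Ccnd2 alone crosses 0.

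The D-type cyclins of G1 phase had the widest spread in HFD. Ccnd3 (ENSMUSG00000034165, chr17:47505051-47599691, plus strand), the D-type cyclin of lymphoid and erythroid development, had 120, 78.2, 33.2 and 32.4 CPM in HFD replicates 1 to 4, and 28.3, 26.6, 32.3 and 34.3 CPM in CF replicates 1 to 4. HFD replicates 1 and 2 lay above all CF libraries, and HFD replicates 3 and 4 lay among them. The HFD mean was 66.1 ± 42.1 CPM (SD, n = 4) and the CF mean 30.4 ± 3.56 CPM, which edgeR fitted as a log2 fold change of 1.12 with a standard error of 0.41 and an adjusted p of 0.43. Its 95% interval ran from 0.18 to 2.06, and the exact two-sided permutation test on log2 CPM gave p = 0.11. Without HFD replicate 1 the log2 fold change of Ccnd3 fell to 0.66, and without HFD replicate 3 it was 1.34. HFD replicate 1 is the library with the high neutrophil and erythroid sums, with 15 of 15 neutrophil and 12 of 12 erythroid markers above all CF libraries. In HFD replicate 2 the neutrophil sum (3520 CPM) and the erythroid sum (211 CPM) were within the CF range, with 0 of 15 neutrophil and 5 of 12 erythroid markers above all CF libraries, such as Ermap, at 18.6 CPM (4.55 to 12.2 in CF). HFD replicate 4, in which Ccnd3 was within the CF range, also had 5 of 12 erythroid markers above all CF libraries, among them 4 globin genes, and HFD replicate 3 had 0 of 12. Of the 9 B cell markers, 8 were above 0 (59.7% of all genes) and 5 were higher in HFD at an unadjusted p below 0.05 (3.22%). The diets did not overlap in 2, Cd79a and Vpreb1 (6.16%), and 0 were called by edgeR. In HFD replicates 1 to 4, respectively 8, 4, 8 and 2 of the 9 B cell markers were above all CF libraries. The part of these cells in the value of Ccnd3 was not tested.

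Ccnd1 (ENSMUSG00000070348, chr7:144929931-144939925, minus strand), the D-type cyclin most used by fibroblasts and epithelia, had 39.8, 84.9, 60.6 and 125 CPM in HFD replicates 1 to 4. In CF replicates 1 to 4 it had 47.9, 51.9, 48.4 and 39.7 CPM. HFD replicates 2, 3 and 4 lay above all CF libraries and HFD replicate 1 within their range, so that the libraries high in Ccnd3 and those high in Ccnd1 had replicate 2 in common. The log2 fold change of Ccnd1 was 0.73 with a standard error of 0.31 and a 95% interval from 0.02 to 1.43 (edgeR, adjusted p = 0.55). It was 0.36 without HFD replicate 4 and 0.94 without HFD replicate 1. The exact two-sided permutation test on log2 CPM gave p = 0.17 for Ccnd1. The HFD libraries fell in the same order by Ccnd1 as by the plasmacytoid DC sum, with HFD replicate 4 the highest in both (125 and 472 CPM) and HFD replicate 1 the lowest (39.8 and 201 CPM), which was noticed after the values were seen. Of the 7 plasmacytoid DC markers tested, 7 were above 0 (59.7% of all genes) and 5 were higher at an unadjusted p below 0.05 (3.22%). The diets did not overlap in 2 of them (6.16%), and 0 were called by edgeR. The part of plasmacytoid DC RNA in the value of Ccnd1 was not tested.

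Ccnd2 (ENSMUSG00000000184, chr6:127125162-127152193, minus strand), a D-type cyclin abundant in hematopoietic progenitors, received the most CPM of the 10 on average. It had 72.3, 127, 186 and 169 CPM in HFD replicates 1 to 4, and 141, 106, 141 and 135 in CF. HFD replicate 1 had the lowest value of all 8 libraries and HFD replicates 3 and 4 the highest. The mean of HFD, 139 ± 50.9 CPM (SD, n = 4), and that of CF, 131 ± 17 CPM, differed by less than the spread between replicates (log2 fold change 0.085, standard error 0.27, edgeR, adjusted p = 0.97). The 95% interval of Ccnd2, from -0.52 to 0.69, includes changes in either direction, and its sign depended on the libraries, with 0.30 without HFD replicate 1, -0.091 without HFD replicate 3, -0.065 without HFD replicate 4 and -0.005 without CF replicate 2.

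Counts within a library give the balance of the D-type cyclins independently of scaling. The log2 ratio of Ccnd3 to Ccnd2 counts was between -2.32 and -1.98 in the 4 CF libraries. In HFD it was 0.74 in replicate 1, -0.70 in replicate 2, -2.49 in replicate 3 and -2.39 in replicate 4. The HFD libraries thus lay on both sides of the CF range. The log2 ratio of Ccnd1 to Ccnd2 counts was -1.77 to -1.03 in CF, and in HFD -0.86, -0.58, -1.62 and -0.44 in replicates 1 to 4. HFD replicate 3 lay within the CF range and the other 3 above it. HFD replicate 1 was the only library in which Ccnd3 had more counts than Ccnd2.

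**Figure D2:**
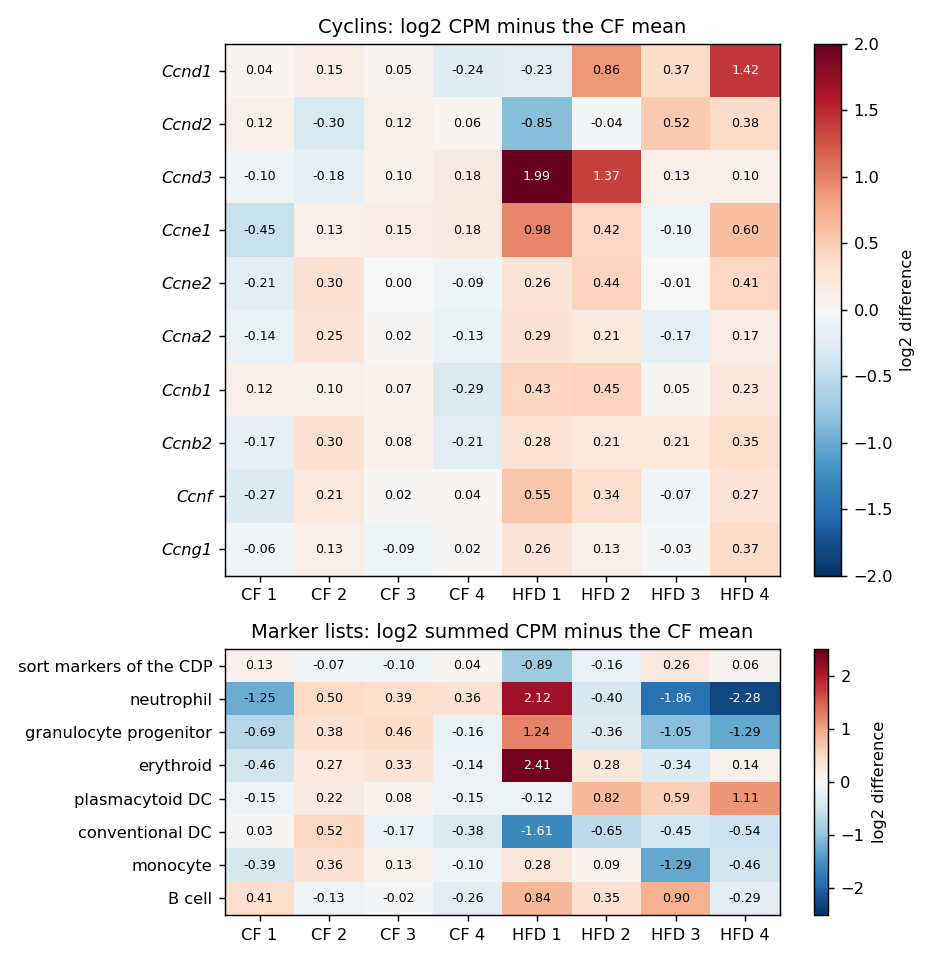
Log2 CPM of each cyclin minus its mean over the CF libraries (top), and log2 summed CPM of marker lists minus the CF mean (bottom), for the 8 libraries in columns. Ccnd3 stands out in HFD replicates 1 and 2 (1.99 and 1.37), Ccnd1 in HFD replicates 2 and 4 (0.86 and 1.42), and the erythroid list in HFD replicate 1 (2.41), while the neutrophil list is high in HFD replicate 1 (2.12) and low in HFD replicates 3 and 4 (-1.86 and -2.28).

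The E-type cyclins, partners of CDK2 at entry into S phase, had higher means in HFD without being called. Ccne1 (ENSMUSG00000002068, chr7:38097984-38107534, minus strand) had 19.3, 13.1, 9.10 and 14.8 CPM in HFD replicates 1 to 4, and 7.11, 10.7, 10.8 and 11.0 CPM in CF. HFD replicates 1, 2 and 4 lay above all CF libraries, and HFD replicate 3 lay among them. The log2 fold change of Ccne1 was 0.51 with a standard error of 0.24 (edgeR, adjusted p = 0.63) and a 95% interval from -0.03 to 1.05. It was 0.32 without HFD replicate 1 and 0.67 without HFD replicate 3. Without both HFD replicate 1 and CF replicate 1, a pair chosen after seeing the data, it was 0.19. These libraries had the most and the least neutrophil RNA of their diets. They also had the highest and the lowest Ccne1 of all libraries, so leaving them out lowers the difference by itself. The part of neutrophil RNA was not tested.

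Ccne2 (ENSMUSG00000028212, chr4:11191351-11204779, plus strand) had 32.0, 36.2, 26.6 and 35.5 CPM in HFD replicates 1 to 4, and 23.0, 32.9, 26.7 and 25.1 CPM in CF. CF replicate 2 lay among the HFD libraries and HFD replicate 3 among the CF libraries. Its log2 fold change was 0.27 with a standard error of 0.15 and a 95% interval from -0.06 to 0.61 (edgeR, adjusted p = 0.72).

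Ccna2 (ENSMUSG00000027715, chr3:36564865-36572150, minus strand), the cyclin of S and G2 phase, had 129, 122, 93.6 and 119 CPM in HFD replicates 1 to 4 and 95.5, 125, 107 and 96.5 CPM in CF. The lowest of all 8 values was in HFD replicate 3, and CF replicate 2 lay above 3 of the 4 HFD libraries. The means of 116 ± 15.4 and 106 ± 13.9 CPM (SD, n = 4) differed by less than the spread between replicates, with a fitted log2 fold change of 0.13 and a 95% interval from -0.18 to 0.44 (edgeR, adjusted p = 0.89). With single libraries left out it ranged from 0.072 (HFD replicate 1) to 0.216 (CF replicate 2). It was 0.024 without HFD replicate 1 and CF replicate 1, and 0.322 with library size alone.

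The B-type cyclins of mitosis had a higher mean in HFD, and each HFD library was above the CF mean of both genes. Ccnb1 (ENSMUSG00000041431, chr13:100778650-100786570, minus strand), which drives entry into mitosis with CDK1, had 33.6, 34.1, 25.8 and 29.3 CPM in HFD replicates 1 to 4. In CF replicates 1 to 4 it had 27.2, 26.7, 26.2 and 20.4 CPM. HFD replicates 1, 2 and 4 lay above all CF libraries and HFD replicate 3 below 3 of them. The log2 fold change was 0.29 with a standard error of 0.14 and a 95% interval from -0.02 to 0.60 (edgeR, adjusted p = 0.62). Ccnb2 (ENSMUSG00000032218, chr9:70407692-70421547, minus strand), the second mitotic B-type cyclin, had 45.7, 43.7, 43.5 and 48.1 CPM in HFD and 33.6, 46.4, 39.9 and 32.5 CPM in CF replicates 1 to 4. Its HFD libraries lay close together (SD 2.13 CPM, 6.42 in CF), and CF replicate 2 lay among them. The log2 fold change of Ccnb2 was 0.25 with a standard error of 0.13 and a 95% interval from -0.04 to 0.54 (edgeR, adjusted p = 0.69). Scaled to library size alone, the diets did not overlap in Ccnb1 or in Ccnb2 (exact two-sided permutation test, p = 0.029 for each, the smallest that 4 against 4 can give), where 10.3% of all genes did not overlap and 7.07% were higher in HFD without overlap. Under TMM the exact p was 0.11 for both genes. The protein-coding share was lower in CF replicates 1 to 3 than in each HFD library, and its part in this result was not tested. Library size alone also put 7 of the 10 cyclins at an unadjusted p below 0.05 and higher in HFD, against 9.92% of all genes, and moved the median log2 fold change of all genes from 0.055 to 0.25.

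Ccnf (ENSMUSG00000072082, chr17:24222198-24251484, minus strand), which encodes cyclin F, had 42.5, 36.8, 27.6 and 35 CPM in HFD replicates 1 to 4 and 24.1, 33.7, 29.5 and 29.8 CPM in CF. HFD replicate 3 was below 3 of the 4 CF libraries, and the other HFD libraries were above all of them. Its log2 fold change was 0.28 with a standard error of 0.15 and a 95% interval from -0.07 to 0.63 (edgeR, adjusted p = 0.74). Without HFD replicate 1 it was 0.18, and without HFD replicate 1 and CF replicate 1 it was 0.096. These 2 libraries had the highest and the lowest Ccnf of all, so leaving them out lowers the difference by itself.

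Ccng1 (ENSMUSG00000020326, chr11:40748552-40755311, minus strand), the p53-induced cyclin G1, had 42.3, 38.7, 34.7 and 45.6 CPM in HFD replicates 1 to 4 and 33.8, 38.6, 33.2 and 35.9 CPM in CF. HFD replicates 1 and 4 were the highest, HFD replicate 2 was level with the highest CF library (38.7 and 38.6 CPM), and HFD replicate 3 lay within the CF range. The log2 fold change was 0.19 with a 95% interval from -0.06 to 0.44 (edgeR, adjusted p = 0.76), and 0.083 without HFD replicate 4.

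**Figure D3:**
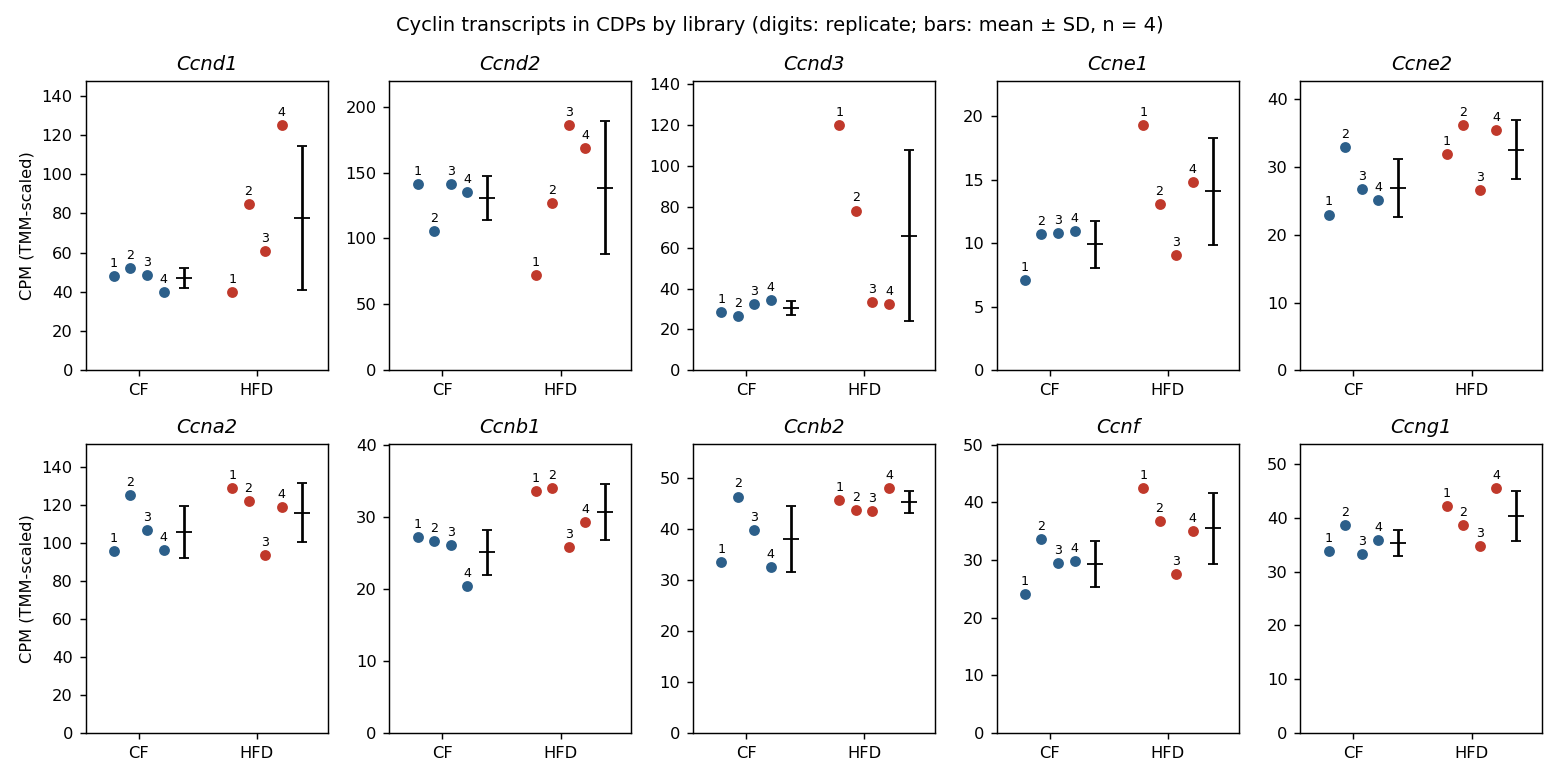
CPM (TMM-scaled) of the 10 cyclins in the CF (blue) and HFD (red) libraries, with replicate numbers beside the points and black bars for mean ± SD (n = 4). The diets overlap in each panel, and HFD replicate 3 lies within the CF range or below it in 8 of the 10.

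The number of cyclins with a low p depended on single libraries. Without HFD replicate 3, 7 of the 10 had an unadjusted p below 0.05 in edgeR, against 3.35% of all genes tested that were higher in HFD at that p, and 0 were called. Without HFD replicate 2, 0 of the 10 reached that p (2.92% of all genes were higher at it), and without CF replicate 1 also 0 (2.53%). Among the 10 cyclins, the highest of the 8 values was always in an HFD library, 4 times in HFD replicate 1, 3 times in HFD replicate 4, 2 times in HFD replicate 2 and 1 time in HFD replicate 3. Over all genes tested, the highest value was in HFD for 67.9%. The lowest value was in a CF library for 8 of the 10 cyclins, against 43.4% of all genes, the others being Ccna2 in HFD replicate 3 and Ccnd2 in HFD replicate 1.

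The spread between libraries differed among the cyclins. The coefficient of biological variation that edgeR fitted was 0.41 for Ccnd3, 0.32 for Ccnd1, 0.28 for Ccnd2 and 0.27 for Ccne1, and 0.16 to 0.19 for the other 6, against a median of 0.25 over all genes tested. Counting error was smaller than this. The lowest count of any cyclin was 275, for Ccne1 in CF replicate 1, and the other 9 genes had at least 783 counts in each library.

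Levels of different genes were compared as CPM per kb of annotated exon. Ccnb2 and Ccna2 were the most abundant, with means of 27.2 CPM per kb for each, and Ccnb2 was the higher of the pair in 2 of 8 libraries. Ccna2 was above Ccnd2 (14.3 CPM per kb) in 8 of 8 libraries. Ccnd2 was above Ccnd1 (13.2) in 5 of 8, and Ccnd1 above Ccng1 (10.8) in 6 of 8, so these neighbours did not keep their order. Ccng1 was above Ccne2 (8.51) and Ccne2 above Ccnb1 (6.62) in 8 of 8. Ccnb1 was above Ccnd3 (5.50) in 6 of 8, Ccnd3 above Ccne1 (4.50) in 4 of 8, and Ccne1 above Ccnf (4.15) in 5 of 8. In HFD replicate 1, Ccnd3 reached 13.7 CPM per kb and Ccnd2 fell to 7.68. The order depended on the length used. Ccnd3 has 8775 bases in the union of its exons and 2113 in its longest protein-coding transcript, with which it moved from the 8th to the 3rd place, at 22.8 CPM per kb of transcript. Per kb of coding sequence, Ccnd2 came first, with 155 CPM per kb, since its transcripts have long untranslated ends.

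**Figure D4:**
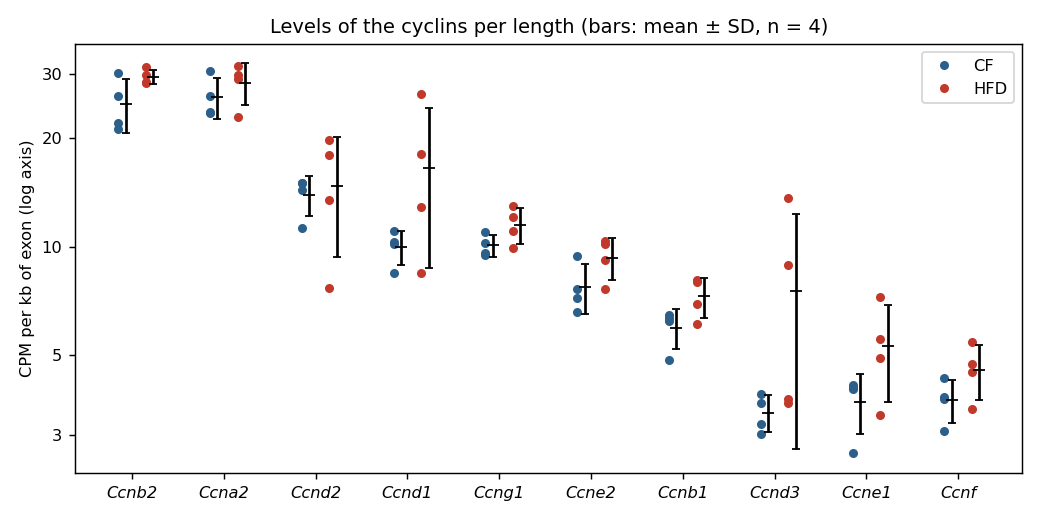
Levels of the cyclins in CPM per kb of exon on a log axis, in descending order of their means, with points for the CF (blue) and HFD (red) libraries and black bars for mean ± SD (n = 4). Ccnb2 and Ccna2 lie above 21 in each library, and the points of Ccnd1, Ccnd2 and Ccnd3 are spread most in HFD.

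Some cyclin reads can be confused with those of other genes. Ccnb1 has near-identical processed pseudogenes, of which Gm12856 (98.1% identity over 1294 bases) and Ccnb1-ps (99.2% over 1287 bases) had rows of their own. They took 4.62% to 6.06% and 6.97% to 9.31% of the summed counts of the 3 genes. With these counts added, the log2 fold change of Ccnb1 was 0.29 (edgeR, adjusted p = 0.62). Ccnd3-ps (96.3% over 881 bases) took 1.68% to 5.18% of its sum with Ccnd3, and the summed log2 fold change was 1.11 (edgeR, adjusted p = 0.42). Exons of Ccna2, Ccnd1, Ccnd3 and Ccne2 overlap those of Exosc9, LTO1, Bysl and Ints8 on the other strand, and those of Ccnd2 overlap the antisense genes Gm43126 and 9330179D12Rik, which were not analysed here. The strandedness of counting is not given in the sources used here. None of the 4 protein-coding neighbours was called (edgeR, adjusted p from 0.81 to 0.90), and Bysl had a mean of 11.2 CPM in HFD and 10.0 in CF.

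The other genes of cyclin control were described with lists written from general knowledge. Of 94 such genes tested, 0 were called by edgeR. At an unadjusted p below 0.05, 4 were higher in HFD (3.22% of all genes were) and 0 were lower (5.34%). A log2 fold change above 0 was found for 71, with a median of 0.064 over the 94. Of all protein-coding genes tested, 64.6% were above 0, with a median of 0.07. The diets did not overlap in 1 of the 94, against 6.16% of all genes. Among 13 other cyclins, which include those of transcription and splicing, 6 were above 0 (median -0.003), and the lowest p belonged to Ccnl2 (log2 fold change -0.26, edgeR, adjusted p = 0.81) and Ccnl1 (-0.14, adjusted p = 0.83), both of the splicing machinery. Ccna1, Ccnb3 and Ccnjl were not analysed here.

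In the list of cyclin-dependent kinases and partners, 6 of 8 genes were above 0, with a median of 0.085. Cdk1, the partner of the B-type cyclins, ranged from 29.7 to 36.5 CPM in HFD against 24.5 to 30.6 in CF (0.20 on the log2 scale, edgeR, adjusted p = 0.77), and Cdk7, which activates CDKs, had 0.22 (adjusted p = 0.69). Cdk6, a partner of D-type cyclins, was the most abundant kinase of the list in CPM. It had 303, 471, 707 and 443 CPM in HFD replicates 1 to 4 and 496 to 662 CPM in CF. As with Ccnd2, HFD replicate 1 was lowest and HFD replicate 3 highest. In HFD replicates 2 and 4, Cdk6 lay below all CF libraries, where Ccnd2 lay within and above the CF range. Of 4 CDK inhibitors tested, the fold change of Cdkn1b (p27) was -0.30 on the log2 scale in edgeR (adjusted p = 0.73) and that of Cdkn2d (p19) 0.43 (adjusted p = 0.77). Cdkn1c, Cdkn2a and Cdkn2b were not analysed here.

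In the list on the RB family, E2F factors and the MuvB core of DREAM, 16 of 22 genes were above 0, with a median of 0.10. The lowest p belonged to Nfyb, a subunit of the CCAAT-binding factor NF-Y, with a log2 fold change of 0.34, and to the MuvB subunit Lin52, with 0.37 (edgeR, adjusted p of 0.50 and 0.58). In the list on mitotic entry and checkpoints, 11 of 14 genes were above 0 (median 0.075). The lowest p belonged to Chek1, the replication checkpoint kinase, with 0.41, and Bora, an activator of mitotic entry, with 0.14 (edgeR, adjusted p of 0.42 and 0.83). In the list on the APC/C, the ubiquitin ligase that degrades A- and B-type cyclins, 17 of 20 genes were above 0 (median 0.095). The APC/C inhibitor Fbxo5 (Emi1) ranged from 30.1 to 34.8 CPM in HFD against 23.2 to 29.6 in CF. It was the 1 gene of the lists without overlap (0.27 on the log2 scale, edgeR, adjusted p = 0.56). Anapc10 had 0.47 (adjusted p = 0.61). In the list on SCF ligases and cyclin D degradation, 9 of 10 genes were above 0 (median 0.054), and Skp1a and Rbx1 had the lowest p, with 0.14 and 0.18 (edgeR, adjusted p of 0.82 and 0.84).

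Of the proliferation markers, 3 of 3 were above 0 and 0 passed the test, with a median of 0.040. Top2a ranged from 488 to 601 CPM in HFD against 515 to 561 in CF (log2 fold change 0.002, edgeR, adjusted p = 1.0), Mki67 896 to 1290 and 960 to 1160 (0.040, adjusted p = 0.98), and Pcna 108 to 150 and 94.8 to 112 (0.23, adjusted p = 0.73). Ratios to Top2a within a library, chosen after the values were seen, do not depend on scaling. The log2 ratio of Ccnb1 to Top2a counts was -4.28 to -3.86 in HFD and -4.66 to -4.24 in CF. For Ccnb2 it was -3.78 to -3.42 and -3.98 to -3.58, and for Ccnf -4.15 to -3.52 and -4.42 to -4.05. The diets overlapped in each of these ratios.

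**Figure D5:**
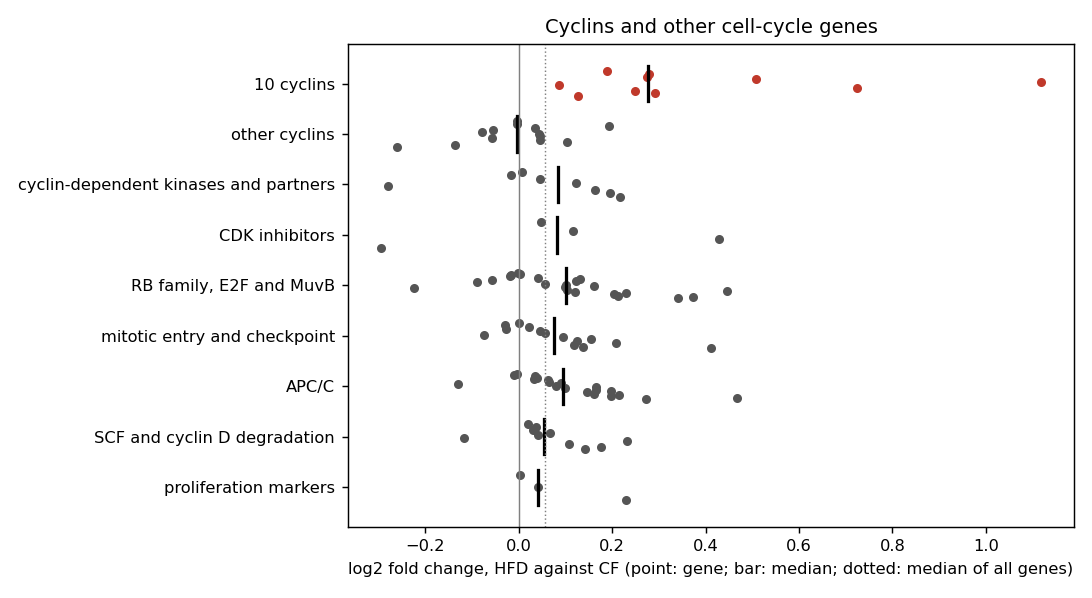
Log2 fold changes between HFD and CF of the 10 cyclins (red) and of the genes of 8 lists on cyclin control (grey), with bars for the median of each row and a dotted line for the median of all genes tested. The cyclins have a median of 0.28, and the lists have medians from -0.003 to 0.10.

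Genes outside the family with the most similar pattern were sought among 11765 protein-coding genes by Pearson's r of log2 CPM over the 8 libraries, as a description. Closest to Ccnb2 were the linker histone gene Hist1h1c (r = 0.99) and the core histone gene Hist1h2bn (r = 0.98). Closest to Ccnd1 was Bst2 (r = 0.98), a gene of the plasmacytoid DC list. The closest gene was Cep170b for Ccnd2 (r = 0.99), Cplx2 for Ccnd3 (r = 0.97), Ube2j1 for Ccne2 (r = 0.95) and Asah1 for Ccna2 (r = 0.98). It was Polh for Ccnb1 (r = 0.96), Grk6 for Ccnf (r = 0.98) and Hspa13 for Ccng1 (r = 0.98). Because each best match was taken from so many genes over 8 libraries, r was high for each of these cyclins.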

How the data were processed

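The 8 RNA-seq libraries of CDPs, 4 from each diet, were compared. The deposited table holds raw counts per gene, which the authors made by HISAT2 alignment to GRCm38, keeping uniquely mapped pairs, and StringTie on GENCODE comprehensive annotation. FastQC and cutadapt are named in the submitters' processing notes. Its columns were matched to replicates by the sample number in their labels. Names, coordinates and lengths came from GENCODE vM21. The release used by the authors is not given in the sources used here.

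All genes entered a fit by edgeR 4.0.16 under R 4.3.3 (filterByExpr, TMM, robust quasi-likelihood fit, diet as the only term) with Benjamini-Hochberg adjustment over all genes tested and a threshold of 0.05. Total counts were 28203651 to 48409689 per library. The standard error is the log2 fold change divided by the square root of F. A prior count of 2 was added for log2 CPM. Permutation tests were exact (70 splits) and two-sided. Alternatives used limma 3.58.1 and DESeq2 1.42.0. The code was tested on simulated data. Figures used Python 3.11.15 and matplotlib 3.10.9.

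Named genes are the 10 cyclins, the 2 genes of each pathway list with the lowest p, genes among the 3 most similar to a cyclin (the closest of each is printed, with Hist1h2bn as the second for Ccnb2, and that of Ccne1 is not reported here), and the sort markers. Mki67, Top2a and Pcna form a whole list. Cdk6, Cd3d, Cd79a, Vpreb1, Cd74, H2-Ab1, Itgax, Ermap, Ccno, Exosc9, LTO1, Bysl and Ints8 were chosen once values had been seen. So were the antisense genes and the pseudogenes. The cyclins and the lists were chosen with earlier results of these data known. Transcript-level values and the study's qRT-PCR and flow cytometry were not analysed here. The authors' own comparisons were not used.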

Additional observations from a re-analysis of the deposited data

Results flagged for a closer look

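Among 38 groups of 4 libraries looked at (10 cyclins and 9 marker sums in each diet), 5 held a library far from the other 3 of its diet by Dixon's criterion, and chance gives about 1 in 20. All values are on the log2 CPM scale. In CF, Ccnb1 was lowest in replicate 4, at 4.35 (4.71 to 4.77 in the others), Ccnd2 in replicate 2, at 6.72 (7.08 to 7.14), and Ccne1 in replicate 1, at 2.84 (3.42 to 3.47). CF replicate 1 was also the lowest of its diet in the neutrophil sum, at 10.93 (12.54 to 12.68). In HFD, replicate 1 was the lowest in the conventional DC sum, at 7.55 (8.52 to 8.71).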

How the results depend on the processing

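Of the 10 cyclins, 0 were called in any of the 19 alternatives, which used other scaling, filters and tools, the replicate block, and fewer libraries. Calls of all genes moved from 67 to 108 with library size alone, 567 with DESeq2, 282 with limma voom and quality weights, and 0 with protein-coding genes alone. They were 0 to 200 with each library left out in turn, and 388 without HFD replicate 1 and CF replicate 1, an alternative chosen after seeing the data. With the replicate number as a block they were 0, and 0 cyclins had an unadjusted p below 0.05 (236 of all genes were higher at it). The numbers did not pair the libraries, since log2 CPM deviations of same-numbered libraries correlated at -0.44 to -0.08 and 0 of 8 libraries correlated best with their own number. The log2 fold change of Ccnd2 ran from -0.091 to 0.337 with libraries left out, and was reversed with limma voom (-0.001) and without HFD replicate 3 (-0.091), HFD replicate 4 (-0.065) or CF replicate 2 (-0.005). The other 9 cyclins were above 0 in all alternatives, with an adjusted p of 0.088 or more. With library size alone the diets were apart in 2 cyclins, Ccnb1 and Ccnb2, and in 10.3% of all genes. Without HFD replicate 1 and CF replicate 1, 1 gene of the lists was called, Ccno (log2 fold change -2.27, edgeR, adjusted p = 0.043), whose value with all 8 libraries had the opposite sign (0.19, adjusted p = 0.98). With 4 libraries per diet, the 95% intervals of 8 of the 10 cyclins included 0, and differences of the sizes fitted were not separated from the spread between libraries after adjustment.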
